A study of Mus musculus with 15 samples.

Results

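Of the 44598 regions in the table of counts made for the *Smarcd1* knockdown comparison, 17158 (38.5%) were regions that shared no base with any of the 38036 regions of the table made for the overexpression comparison, were under 1000 bp long and lay on an autosome. They are called KD-only regions below, after the table that lists them. The choice used the lists of positions and widths, and no count. The positions themselves come from peaks called on reads of this series. Absence from the overexpression table may thus favour regions weaker in the empty vector and overexpression lines, so the set is not independent of the levels compared below. Both tables hold counts for all 15 libraries of the series, so a KD-only region has a value in each library, the overexpression lines included. The regions they are set beside are the 25030 of the same table that share at least a base with a region of the overexpression table and meet the same limits on width and chromosome, called shared regions. Left out were 137 autosomal regions listed in the knockdown table only but too wide, the narrowest of them 1001 bp, and 623 on chrM, chrX or chrY, while the widest KD-only region had 998 bp.

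The cells were 6DT1, a mouse mammary cancer line grown in monolayer on tissue culture plastic, with 3 libraries in each of 5 groups. The EV line carried an empty vector (Ctrl_ EmptyVector) and the OE line a *Smarcd1* overexpression vector. The Scr line (Ctrl_KDScr) carried a scrambled short hairpin RNA, and KD4 and KD6 were 2 knockdown lines with hairpins against *Smarcd1*. All 5 were transduced derivatives of the same cell line, and the labels call them untreated. By the methods, knockdown lines were selected and kept in puromycin and overexpression lines in blasticidin, with the drug of each control line not named separately. Each group is a single derived line, so a difference between groups cannot be told apart from a difference between the lines as they were made, and one between the overexpression and knockdown sets of lines cannot be told apart from the drug. According to the labels each replicate was seeded from another passage, but that text describes an RNA extraction. If it does not hold for these libraries, p-values measure only a spread that may be technical.

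ATAC-seq reads where a transposase can insert adapters into DNA, so counts are high over promoters, enhancers and other stretches that nucleosomes leave open. *Smarcd1* encodes BAF60A, a subunit of the SWI/SNF (BAF) chromatin remodelling complexes, which slide and evict nucleosomes. Strong open regions, many of them promoters, tend to be called as peaks in most samples of a cell type, and weak ones come and go between peak calls. The positions are on mm39, for which no annotation was used here, so regions carry no gene names, the cell type was not checked against marker genes, and the *Smarcd1* locus was not used as a check of the labels.

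Library totals lay between 16176521 and 23703741 counts, which leaves a typical KD-only region with few counts. The median over KD-only regions of the median count per library was 46, against 207 for shared regions. Levels are given as TMM-scaled CPM, counts relative to the library total, where TMM is a factor that equalises typical regions between libraries. Within a group of 3 libraries the coefficient of variation of a KD-only region had a median of 19.3%, against 13.3% in shared regions, so a single weak region was measured with more relative error.

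KD-only regions were weaker and narrower than shared ones. Their mean level over the 15 libraries had a median of 2.37 CPM, with the middle part of the distribution (25th to 75th percentile) between 1.29 and 4.76 CPM, against a median of 10.5 CPM in shared regions, a ratio of 4.43. Their median width was 264 bp against 323 bp. The gap remained per 1000 bp of width, with medians of 8.58 and 30.6 CPM, a ratio of 3.57. The distributions overlapped: 13098 KD-only regions (76.3%) and 27.6% of shared regions had under 5 CPM, and 1480 KD-only regions (8.63%) reached the median of shared regions.

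**Figure D1:**
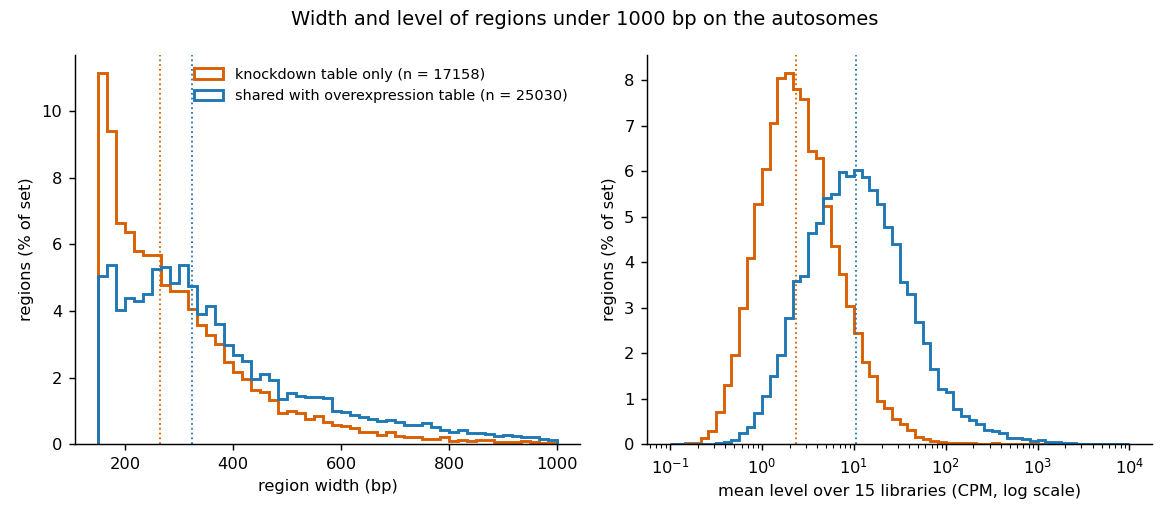
Width in bp (left) and mean level over 15 libraries in CPM on a log axis (right) of the 17158 KD-only and 25030 shared regions, each as a percentage of its set; dotted lines are medians. KD-only regions peak at the narrow end and their median level of 2.37 CPM lies below the 10.5 CPM of shared regions, with wide overlap.

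Being listed in the knockdown table alone did not mean that a region lacked counts in the EV and OE lines. What level a closed site gives was not measured. The median level of KD-only regions was 2.27 CPM in EV, 2.23 in OE, 2.37 in Scr, 2.48 in KD4 and 2.43 in KD6. After each library was thinned at random to the smallest total, 13218 KD-only regions (77.0%) had at least 10 counts in all 15 libraries and 58 had them in none. In all 6 EV and OE libraries 13826 (80.6%) were detected in this sense, and in all 9 Scr, KD4 and KD6 libraries 14131 (82.4%). The mean of the 6 EV and OE libraries exceeded that of the 9 others in 38.1% of KD-only and 52.3% of shared regions. The median log2 ratio of EV and OE over the other lines was -0.08 in KD-only and 0.01 in shared regions. The log2 ratio lay below -1 in 134 KD-only (0.781%) and 22 shared regions (0.0879%). It lay above 1 in 30 KD-only (0.175%) and 20 shared regions (0.0799%). A tilt to lower levels in EV and OE may come from the rule that chose the regions, and nothing is read from it.

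Of the 17158 regions, 4 were detected in all 9 Scr, KD4 and KD6 libraries and in 0 of 6 EV and OE libraries, and they are named here after their values were seen. The clearest was chr9:20681364-20681517, 154 bp wide. Its level was 0.588, 0.626 and 0.518 CPM in EV and 0.516, 0.357 and 0.338 CPM in OE. It was 4.33, 2.24 and 4.49 CPM in Scr, 4.39, 3.67 and 6.58 CPM in KD4, and 3.38, 1.98 and 2.01 CPM in KD6. Every library of the Scr and knockdown lines thus lay above every EV and OE library, and the knockdown lines did not pass the test against Scr (log2 fold change -0.08, edgeR FDR 0.963). The other 3, chr12:61338329-61338505, chr3:69872288-69872538 and chr3:126601811-126601989, lay close to the limit of 10 counts, with 3 to 9 thinned counts in EV and OE and 10 to 33 in the other lines.

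KD-only regions made up a small and similar part of every library. They took 7.56%, 7.61% and 8.06% of the counts in EV, 7.62%, 7.27% and 7.83% in OE, 7.68%, 7.94% and 8.12% in Scr, 8.11%, 8.47% and 8.49% in KD4, and 8.06%, 7.81% and 8.50% in KD6. Each group's range overlapped that of at least another group, and the highest Scr library lay above the lowest of KD4 and of KD6. The mean of the 6 knockdown libraries was 0.324 percentage points above that of Scr (8.24% ± 0.289, SD, n = 6, against 7.91% ± 0.221, n = 3), and OE was 0.171 points below EV, both of the size of the spread between libraries. The part of KD-only regions detected at an equal library total was 90.1% ± 2.48 in EV, 91.7% ± 1.70 in OE, 91.7% ± 1.36 in Scr, 94.7% ± 0.138 in KD4 and 94.2% ± 1.26 in KD6 (SD, n = 3 each). In numbers, 16204.3 regions on average were detected in the knockdown libraries against 15742 in Scr, with 5 of 6 knockdown libraries above all 3 of Scr. The remaining one, KD6 replicate 1 with 15954 regions, lay below Scr replicate 3 with 16011. Of shared regions, nearly all were detected, 99.3% to 99.7% in Scr and 99.2% to 99.7% in the knockdown libraries, which overlap. Thinning equalised the totals and not the TMM factors, which ran from 0.882 in EV replicate 1, the library with the fewest regions detected (15108), to 1.06 in KD6 replicate 3, which had the most (16385). The part of the factors in these numbers was not tested, nor was that of a list made for the knockdown comparison.

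**Figure D2:**
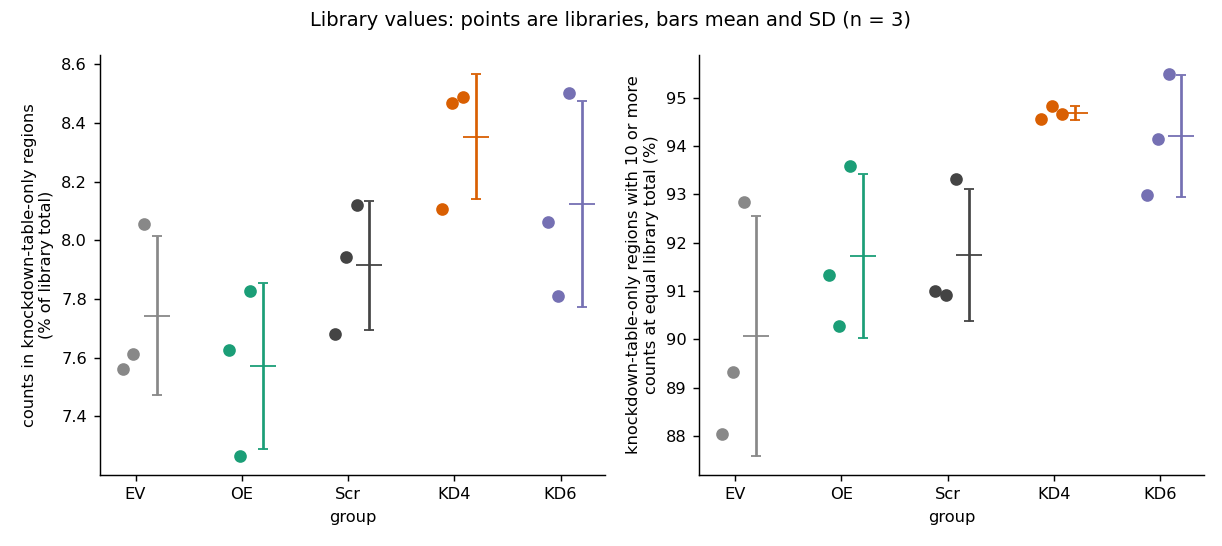
Share of each library's counts in KD-only regions in percent (left) and share of KD-only regions with 10 or more counts at an equal library total in percent (right); points are libraries and bars the mean and SD of 3. The axes do not start at 0. All 3 KD4 libraries detect between 94.6% and 94.8% of the regions, above every Scr, EV and OE library, and KD6 overlaps Scr.

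KD-only regions were spaced more widely than shared ones. The nearest other region of the knockdown table lay a median of 1040 bp away, against 691 bp for shared regions, and 49.2% against 57.6% had one within 1000 bp. The nearest region of the overexpression table lay a median of 2687.5 bp away. The smallest gap was 60 bp, and 3202 KD-only regions lay within 500 bp of such a region. The most isolated one by distance to any other region of the knockdown table, chr15:14621458-14621688, had none within 1786788 bp and a mean of 2.19 CPM, with 1.23 to 2.37 CPM in EV and 1.62 to 2.97 CPM in Scr. By chromosome, the part of narrow regions that were KD-only ran from 36.3% on chromosome 11 to 44.2% on chromosome 3.

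Of all KD-only regions, 5987 (34.9%) stood in 2539 runs of neighbouring KD-only regions no more than 2000 bp apart with no other region between. Another 11171 stood alone, and 51 runs held at least 5. The 2 longest held 8 regions each, both on chromosome 19. The first spanned chr19:17186451-17194892, 8442 bp in which no region exceeded 1.90 CPM, and the nearest region of the overexpression table was 3454 bp off. Its summed level was 3.59, 3.96 and 5.77 CPM in Scr, 6.70, 7.40 and 9.18 CPM in KD4, and 5.18, 7.15 and 11.7 CPM in KD6. All 8 had a positive fitted fold change, between 0.47 and 1.24 on the log2 scale, but KD6 replicate 1 lay below Scr replicate 3 and none passed the test (lowest edgeR FDR 0.247). The second run spanned chr19:23700878-23708522 and differed less, with fitted values from -0.50 to 0.27.

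A few strong sites stood out from the mass of weak ones, with 22 KD-only regions at 100 CPM or more. The strongest was chr9:44286100-44286503, 404 bp wide, with 824, 464 and 416 CPM in EV, 393, 388 and 350 CPM in OE and 383, 441 and 349 CPM in Scr. It had 360, 385 and 417 CPM in KD4 and 520, 334 and 398 CPM in KD6, so EV replicate 1 stood apart and the other libraries overlapped. The next were 3 regions of 213 to 280 bp on chromosome 12, chr12:54785139-54785354, chr12:54781166-54781445 and chr12:54765837-54766049, with mean levels of 329, 329 and 327 CPM. With a 4th region nearby, 4 KD-only regions between positions 54757137 and 54785354 had nearly equal counts in each library, the gap between the highest and lowest being 6.21% of their mean at most. All of these counts were whole. Their sequences were not examined, so whether they share reads is unknown. At the other end, chr6:47717466-47717660 had a mean of 0.161 CPM and a region on chromosome 18 one of 0.164 CPM, too few counts to be tested. By width, the extremes were chr10:79250783-79251780, 998 bp wide with 11.6 CPM and a log2 fold change of knockdown over Scr of 0.59 (SE 0.163, edgeR FDR 0.211), and chr1:9754770-9754923, 154 bp wide with 0.365 CPM and not tested.

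The comparison of the 2 knockdown lines together with Scr asks which sites open or close when *Smarcd1* is lowered. Here 48 of 16884 KD-only regions tested (0.284%) were higher in the knockdown lines and 0 were lower at an edgeR FDR of 0.05. Over all 44289 regions of the table tested, 0.255% were higher and 0.0158% lower, so the share of KD-only regions called higher was near that of the table. Shared regions gave 25 calls upward (0.0999%) and 7 downward. An unadjusted p under 0.05 by edgeR was reached by 1138 KD-only regions upward and 211 downward, beside 2333 and 1320 over all regions. DESeq2 called 113 higher and 0 lower at the same FDR, beside 255 and 22 over all regions. The median log2 fold change of KD-only regions was 0.05 with 59.4% of them positive, beside -0.005 and 49.1% over all regions tested.

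The number called fell most when a Scr library was left out. Without Scr replicate 1, 4 KD-only regions were higher, without Scr replicate 2, 8, and without Scr replicate 3, 3. Over all regions tested the number fell likewise, from 113 to 14, 20 and 8. The KD-only number was 23 without KD6 replicate 1, 20 without KD4 replicate 2 and 17 without KD6 replicate 2. Over all regions it was 49, 43 and 40. Leaving out any of the 3 remaining knockdown libraries gave 36 to 60 KD-only regions, beside 74 to 156 over all regions.

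The 48 regions had a median gap of 44784.5 bp to the nearest region of the overexpression table, beside 2687.5 bp for all KD-only regions, and of 693 bp to the nearest of the knockdown table, beside 1040 bp. Their log2 fold changes ran from 0.68 to 3.22 with a median of 1.39, their median width was 462 bp, beside 264 bp, and their median level 2.50 CPM, with 35 of 48 under 5 CPM. They lay on 15 chromosomes, and 33 had another region called higher within 50000 bp. In 46 all 6 knockdown libraries lay above all 3 Scr libraries. The 2 exceptions were chr11:120671794-120672692 and chr8:13068777-13069698, in each of which a single Scr library passed at least 1 knockdown library. The same libraries made the calls, so this separation was largely set by the choice of regions and adds nothing to them. Neither the 33 nor the 46 has a share over all KD-only regions beside it.

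The median level of these 48 in the EV line was nearer to that of the knockdown lines than to that of Scr. In the OE line it lay between Scr and the knockdown lines. The median over the 48 was 2.82 CPM in EV, 2.34 in OE, 1.22 in Scr, 3.58 in KD4 and 3.21 in KD6. Scr had the lowest group mean in 45 of 48. The EV mean was above the Scr mean in 47, the exception being chr8:36143931-36144860, and above the mean of the knockdown lines in 13. In the comparison of Scr with EV, which uses the same Scr libraries and is no independent check, 32 of the 48 were lower in Scr and 0 higher at an edgeR FDR of 0.05. The calls chose regions that are low in Scr, and whether the Scr line or the knockdown lines had moved cannot be told apart in this design. None of the counts 45, 47 and 13 has a share over all KD-only regions beside it.

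**Figure D3:**
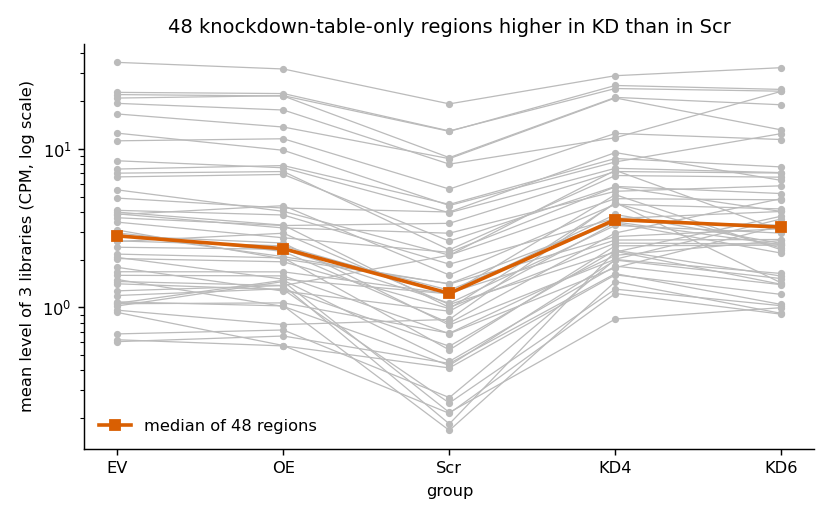
Mean level of 3 libraries in CPM on a log axis, by group, for the 48 KD-only regions called higher in the knockdown lines than in Scr; each grey line is a region and the orange line their median. The median dips to 1.22 CPM in Scr from 2.82 in EV and 2.34 in OE and stands at 3.58 and 3.21 in KD4 and KD6.

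The regions with the smallest p give this pattern library by library. At chr15:54616383-54616965, 583 bp wide and 261865 bp from any region of the overexpression table, Scr had 0.804, 0.729 and 0.854 CPM. KD4 had 2.65, 3.08 and 3.11 CPM and KD6 4.95, 4.46 and 5.13 CPM, while EV had 2.65, 3.80 and 2.40 CPM and OE 2.01, 2.94 and 1.80 CPM. Scr lay apart from all 12 other libraries, and the log2 fold change of the knockdown lines over Scr was 2.24 (SE 0.217, edgeR FDR 0.000315). It was part of a group of 3 called regions, picked out after their values were seen, between positions 54611167 and 54616965 of chromosome 15, whose summed level was 1.56 to 2.78 CPM in Scr, 5.24 to 8.40 in KD4 and 10.4 to 12.7 in KD6.

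The largest fold change was at chr19:53225023-53225282, 260 bp wide. Its level was 0.185, 0.313 and 0.0534 CPM in Scr, 2.31, 2.39 and 2.07 CPM in KD4, and 1.30, 1.57 and 1.32 CPM in KD6. EV had 0.833 to 1.52 CPM and OE 0.979 to 1.78 CPM, between Scr and KD4 and level with KD6. The log2 fold change was 3.22 (SE 0.381, edgeR FDR 0.00111), with Scr libraries near the floor of a few counts. With 3 further called regions it formed a group, likewise picked out afterwards, between positions 53222048 and 53234852, 12805 bp, whose summed level was 0.694 to 1.72 CPM in Scr and 4.49 to 9.05 CPM in the knockdown lines.

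At chr10:18720893-18721154, 262 bp wide, the lines other than Scr were close to each other. Scr had 1.85, 2.60 and 2.46 CPM, and the 12 other libraries 5.49 to 7.91 CPM. The log2 fold change of the knockdown lines over Scr was 1.53 (SE 0.183, edgeR FDR 0.00111) and the difference between KD6 and KD4 was -0.03 (SE 0.181).

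On chromosome 1, 4 called regions of 156 to 165 bp, chosen for display after their values were seen, lay between positions 191307902 and 191351881, 43980 bp that hold 13 regions of the table, 9 of them KD-only. The strongest change was at chr1:191328293-191328449, with 8.16, 9.48 and 8.76 CPM in Scr, 19.8, 22.3 and 21.3 CPM in KD4 and 20.8, 22.4 and 13.7 CPM in KD6. EV and OE libraries had 20.1 to 24.3 CPM. Its log2 fold change was 1.19 (SE 0.156, edgeR FDR 0.00321). At chr1:191351726-191351881 Scr had 5.13 to 6.30 CPM and the knockdown libraries 9.31 to 13.5 CPM, a log2 fold change of 1.10 (SE 0.155, edgeR FDR 0.00612). Both lost the call without Scr replicate 1 or Scr replicate 3, with edgeR FDR values of up to 0.0594 and 0.0798.

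Among KD-only regions fitted as lower in the knockdown lines, none passed. The smallest p belonged to chr4:39953716-39953889, with 5.50, 4.43 and 4.70 CPM in Scr, 3.21, 3.67 and 2.95 CPM in KD4 and 2.64, 2.69 and 3.60 CPM in KD6. Scr lay above all 6 knockdown libraries, and also above EV (2.06 to 2.78 CPM) and OE (2.27 to 2.32 CPM). The log2 fold change was -0.64 (SE 0.173, edgeR FDR 0.204). At chr8:112455006-112455262 it was -0.66 (SE 0.186, edgeR FDR 0.234), from 3.39 to 3.71 CPM in Scr and 1.74 to 2.59 CPM in the knockdown lines.

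How far a KD-only region lay from any site listed for the overexpression comparison went with its difference between knockdown and Scr. No region called higher was found among the 3196 tested within 500 bp of such a site, 6 among 4445 at 501 to 2000 bp, 5 among 4568 at 2001 to 10000 bp, 14 among 3047 (0.459%) at 10001 to 50000 bp, and 23 among 1628 (1.41%) beyond 50000 bp. The median log2 fold change was 0.03, 0.01, 0.04, 0.13 and 0.18 in the same order, and 72.2% of the most distant were positive. Their level fell along the way, from a median of 14.6 CPM per 1000 bp within 500 bp to 5.58 CPM per 1000 bp beyond 50000 bp, and their median width rose from 257 to 274 bp. The most distant 1697 regions summed to 5133, 5346 and 5173 CPM in Scr, 5700, 6338 and 6304 CPM in KD4 and 6124, 5420 and 5585 CPM in KD6, so all 6 knockdown libraries lay above Scr. They summed to 6567, 5811 and 5619 CPM in EV and 5294, 5270 and 5197 CPM in OE, so EV overlapped the knockdown lines and exceeded them in 1 library, and OE lay between the lowest and highest Scr library. Within 500 bp, sums were 21306 to 22614 CPM in Scr and 21927 to 23431 CPM in the knockdown lines, which overlap. These bins were set with values in view and are a description with no test. The distance is to the list whose absence defined the set, and the regions come from a list made for the knockdown comparison. How far that choice shapes the pattern was not tested.

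**Figure D4:**
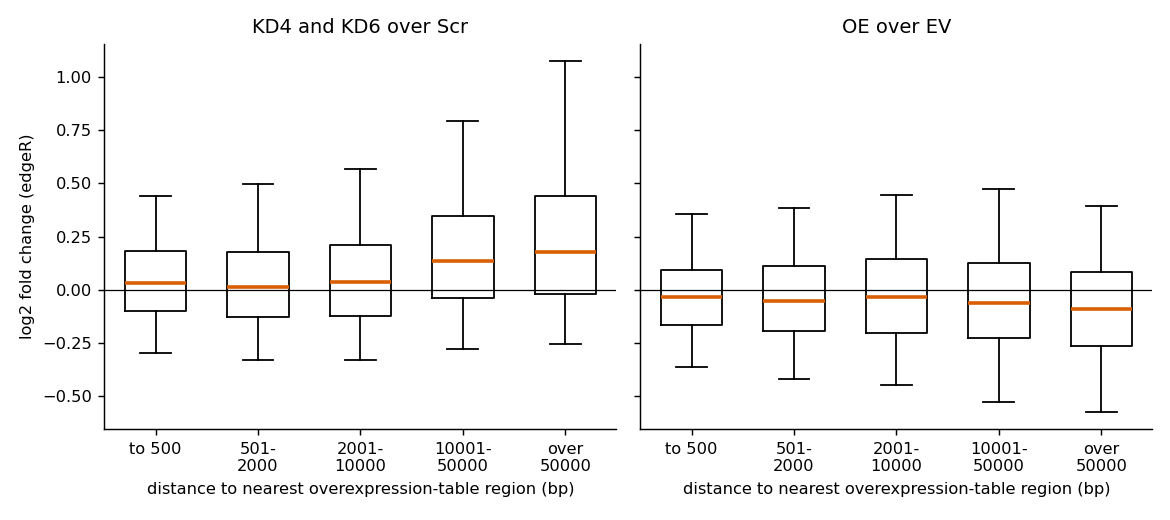
Log2 fold change of KD-only regions by distance to the nearest region of the overexpression table, for KD4 and KD6 over Scr (left) and OE over EV (right); boxes span the quartiles with the median in orange, whiskers the 5th to 95th percentile. For the knockdown lines the median moves from 0.03 within 500 bp to 0.18 beyond 50000 bp, and for OE from -0.04 to -0.09. The sign for OE depends on scaling: over all KD-only regions tested the median was -0.05 with TMM, as drawn, and 0.02 without.

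By width class, the difference was largest in the widest KD-only regions. Of 1600 KD-only regions of 500 bp or more, 23 (1.44%) were called higher and the median log2 fold change was 0.15, with 76.9% positive. In shared regions of the same width 17 of 4909 (0.346%) were called and the median was 0.03. Among KD-only regions of 200 to 299 bp, 4 of 5542 (0.0722%) were called, with a median of 0.03, against 3 of 7154 shared regions and a median of -0.08. In the other width classes too the median was higher in KD-only than in shared regions, 0.05 against -0.10 under 200 bp and 0.05 against -0.04 from 300 to 499 bp. There 9 of 4523 (0.199%) and 12 of 5219 (0.230%) KD-only regions were called, so the share did not rise steadily with width. The median level was 1.88, 2.05, 2.72 and 5.16 CPM from the narrowest KD-only class to the widest. The part of level in these calls was not tested.

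The knockdown lines taken one at a time gave unequal numbers. KD4 had 100 KD-only regions higher and 3 lower than Scr at an edgeR FDR of 0.05, where 0.431% of all regions were higher and 0.145% lower. KD6 had 29 higher and 0 lower, where 0.142% of all regions were higher and 0.00677% lower. An unadjusted p under 0.05 by edgeR was reached by 196 KD-only regions downward in KD6, beside 830 over all regions. DESeq2 called 0 lower there, beside 12 over all regions. Leaving out a library moved these numbers: KD4 had 18 higher without Scr replicate 1, 44 without Scr replicate 2, 19 without Scr replicate 3, 31 and 56 when KD4 replicate 2 or 3 was left out and 63 when KD6 replicate 2 was, and its 3 lower became 0 without Scr replicate 1 or 2 and 1 to 3 otherwise. KD6 had 2, 11 and 6 higher without Scr replicate 1, 2 or 3, 7 and 4 without KD6 replicate 1 or 2, and 17 without KD4 replicate 2. Over all regions, the number higher in KD4 went from 191 to 38, 86 and 44 without Scr replicate 1, 2 or 3. In KD6 it went from 63 to 7, 24 and 11. Both comparisons use the same Scr libraries. Of the 48 regions called for both lines together, 37 passed in KD4 alone, 19 in KD6 alone and 12 in each. The 3 lower in KD4 were chr14:75466689-75467077, chr5:65964368-65964574 and chr9:66034084-66034237, named after their values were seen, with log2 fold changes of -1.17, -1.04 and -0.82.

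The hairpin lines were also set directly against each other. At an edgeR FDR of 0.05, 11 of 16884 KD-only regions were higher and 12 lower in KD6, where 0.151% and 0.0723% of all regions tested were called in those directions. The share called higher, 0.0652%, was below that of the table, and the share called lower, 0.0711%, near it. Among the 48 regions above, 3 differed between the lines, named after their values were seen. chr6:86095468-86096439 was higher in KD6 (20.3 to 28.5 CPM) than in KD4 (10.7 to 13.1 CPM). chr8:13068777-13069698 and chr8:36143931-36144860 were higher in KD4, the second with 6.20 to 7.98 CPM there and 2.80 to 3.38 CPM in KD6.

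At some of these regions Scr lay between the knockdown lines. At chr14:75466689-75467077 KD4 had 3.89, 7.90 and 7.26 CPM and KD6 19.0, 17.3 and 17.8 CPM, with Scr at 12.5 to 17.5 CPM, of which the highest library overlapped KD6, and EV and OE higher still, at 24.9 to 33.0 CPM. The log2 difference of KD6 from KD4 was 1.50 (SE 0.211, edgeR FDR 0.00498). At chr7:142065805-142066103 KD6 had 12.9, 12.6 and 14.8 CPM and KD4 5.58, 5.37 and 6.07 CPM, a log2 difference of 1.24 (SE 0.154, edgeR FDR 0.00257). Here KD4 lay below Scr (6.57 to 7.55 CPM) and KD6 above every other library. At chr11:86702715-86703218 KD6 had 24.0 to 28.4 CPM and KD4 11.4 to 16.0 CPM, on either side of Scr at 16.6 to 18.8 CPM.

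The reverse was seen at chr17:28390241-28391015, with 7.67 to 12.2 CPM in KD4 and 3.84, 3.50 and 2.86 CPM in KD6. The log2 difference was -1.59 (SE 0.243, edgeR FDR 0.00828), and the 6 EV and OE libraries had 8.44 to 9.75 CPM, above all of KD6. At chr15:97143080-97143518 KD4 had 6.70 to 9.23 CPM and KD6 2.64 to 3.29 CPM, and at chr10:80767419-80767913 KD4 had 9.28 to 10.9 CPM and KD6 3.75 to 5.88 CPM. Scr lay between the knockdown lines on chromosomes 10 (6.25 to 7.14 CPM) and 15, in the latter at 4.39 to 6.35 CPM, and overlapped KD4 on chromosome 17, at 4.86 to 9.12 CPM.

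**Figure D5:**
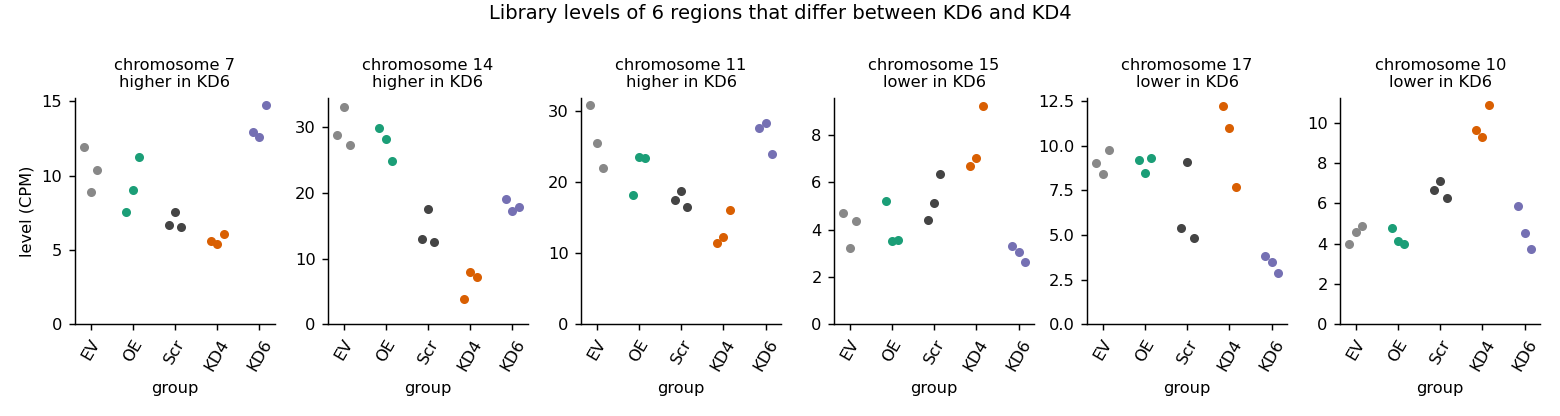
Level in CPM of each library, by group, at 6 KD-only regions that differ between the knockdown lines, on linear axes from 0; each point is a library. On chromosome 14 KD4 lies at 3.89 to 7.90 CPM and KD6 at 17.3 to 19.0 CPM, and on chromosome 17 the order is reversed.

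Overexpression of *Smarcd1* against the empty vector called no KD-only region in either direction. Of 16619 tested, 0 were higher and 0 lower at an edgeR FDR of 0.05, as were 0% of all 44011 regions in each direction. An unadjusted p under 0.05 by edgeR was reached by 157 KD-only regions upward and 714 downward, beside 1469 and 1434 over all regions. Without TMM scaling these were 216 and 319, beside 2245 and 636. DESeq2 called 0 higher and 2 lower. The median log2 fold change of KD-only regions was -0.05, with 41.8% positive, beside 0.002 and 50.4% over all regions. Without TMM scaling the medians were 0.02 and 0.07, so the sign turned while KD-only regions stayed below the whole table.

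The KD-only region with the smallest p in that comparison was chr3:108811369-108811964, also one of the strongest. EV had 226, 215 and 191 CPM and OE 127, 134 and 110 CPM, with no overlap, a log2 fold change of -0.76 (SE 0.121, edgeR FDR 0.227). It varied far more within other groups: Scr had 133, 271 and 99.4 CPM and KD4 63.4, 203 and 257 CPM. It passed in DESeq2, with the replicate number as a block and without EV replicate 1, at FDR values of 4.42e-05, 0.0490 and 0.0416. In the other direction chr6:37307050-37307355 had 1.81 to 2.41 CPM in EV and 3.52 to 3.95 CPM in OE, a log2 fold change of 0.78 (SE 0.210, edgeR FDR 0.751), and 1.25 to 4.86 CPM in Scr.

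More KD-only regions were called between the control lines Scr and EV than between either and its altered lines. Of 16460 KD-only regions tested, 194 (1.18%) were higher and 335 (2.04%) lower in Scr at an edgeR FDR of 0.05, beside 2.19% and 2.2% of all regions tested. Scaling shifted this comparison: without TMM the median of all regions moved from 0.02 to 0.12 and the KD-only calls became 207 higher and 163 lower. The lines were derived separately and carry different vectors. Absence from the overexpression table may also favour regions lower in EV, so the KD-only counts are a description from which nothing is read.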

How the data were processed

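ATAC-seq libraries of 6DT1 monolayer cells were taken from 5 groups of 3, with groups and replicate numbers from the sample labels. The methods give mm39 as the build, Bowtie2 as the aligner and MACS, run within Partek Flow, as the peak caller. STAR 2.7.8a is named instead in the submitters' processing notes, and the extraction text of the labels is about RNA, so the aligner behind these values is uncertain, as is whether every read counted came from ATAC-seq. No source used here says how peaks were merged to 1 list of regions per comparison. The authors deposited expected counts for each region without normalization, of which 95.1% were whole and 0 were zero, and these were rounded. Each table has 15 further columns that match no sample and were not used.

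All regions of the knockdown table were fitted with edgeR 4.0.16 in R 4.3.3 (quasi-likelihood, TMM, the tool's filter on low counts, Benjamini-Hochberg FDR 0.05), with KD4, KD6 and Scr as 3 groups and the mean of KD4 and KD6 set against Scr. OE with EV, and Scr with EV, were fitted in pairs. DESeq2 1.42.0 was an alternative. Detection used libraries thinned to 16176521 counts, with a fixed seed and a minimum of 10. The procedure was tested on simulated data. The variance between replicates was at least 3.55 times the sampling noise.

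The regions and the lists used were chosen with earlier results of these data known. Values summed over KD-only regions are therefore given without a test, although an exact permutation test had been planned. Regions named were those past the threshold with the smallest p in each direction and comparison (5 at most for knockdown, 3 for KD6 against KD4 and for OE, and where none passed 2 and 1), the strongest, weakest, widest, narrowest and most isolated, and the longest runs; others are marked as named after their values were seen. Other scalings, filters, thresholds, tools, definitions of the set, single knockdown lines, a replicate block and leaving out each library were tried. Sphere culture was not analysed here.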

Additional observations from a re-analysis of the deposited data

Results flagged for a closer look

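Results are listed here when the level differed between the 2 knockdown lines by a test of that difference itself. At an edgeR FDR of 0.05, 11 KD-only regions were higher and 12 lower in KD6 than in KD4. In order of p within each direction, the 3 leading regions each way were chr7:142065805-142066103 (log2 difference of KD6 from KD4 1.24), chr14:75466689-75467077 (1.50), chr11:86702715-86703218 (1.01), chr15:97143080-97143518 (-1.35), chr17:28390241-28391015 (-1.59) and chr10:80767419-80767913 (-1.07).

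Those on chromosomes 7 and 14 kept the call under all 16 alternatives tried. The one on chromosome 10 lost it without any of 4 libraries (KD4 replicate 2 or 3, KD6 replicate 2 or 3), and those on chromosomes 11 and 17 without KD4 replicate 2 or KD6 replicate 2. The one on chromosome 15 lost it without KD6 replicate 2. Groups of 3 libraries are too small for a test of single outlying libraries.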

How the results depend on the processing

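Of KD-only regions higher in the knockdown lines, 48 as reported, there were 92 at an FDR of 0.1 and 113 with DESeq2. There were 100 with KD4 alone and 29 with KD6 alone, and 3 to 60 with 1 library left out. Over all regions, 113 as reported became 212, 255, 191 and 63 in that order, and 8 to 156 with 1 library left out. Of KD-only regions lower, 0 as reported, KD4 alone gave 3, and leaving out a library gave 0 to 1. For KD6 against KD4, the 11 higher and 12 lower became 24 and 29 at an FDR of 0.1 and 26 and 42 with DESeq2, with 2 to 11 and 0 to 14 on leaving out a library. For OE against EV, DESeq2 gave 2 lower and leaving out a library 0 higher and 0 to 1 lower. For Scr against EV, an FDR of 0.1 gave 529 higher and 737 lower, no TMM scaling gave 163 lower, a minimum of 50 counts in 3 libraries gave 209 lower, and leaving out a library gave 25 to 317 higher and 82 to 523 lower. Same-numbered libraries had correlations of their deviations from -0.219 to 0.276. Differently numbered libraries were not set beside them, so whether the replicate numbers pair the libraries is not settled. With the replicate block, 43 KD-only regions were higher in the knockdown lines, 9 higher and 11 lower in KD6 than in KD4, 2 lower in OE than in EV, and 214 higher and 338 lower in Scr than in EV. The 2 lower in OE, by the block and by DESeq2 alike, were chr3:108811369-108811964 and a region on chromosome 18.

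The median log2 fold change of KD-only regions was 0.04 to 0.07 for knockdown and -0.07 to -0.02 for OE with 1 library left out, and 0.021 for OE without TMM. The difference in detected regions between knockdown and Scr, 462.3 at a minimum of 10 counts, was 198.7 at a minimum of 5 and 391.3 to 596.8 with 1 library left out. That between OE and EV, 283.3, was -53.0 without thinning and 109.5 to 521.0 with 1 library left out. The difference in the share of counts was 0.207 to 0.426 points for knockdown and -0.298 to -0.0146 points for OE. Depth limits the weak regions most: 16460 to 16884 of 17158 KD-only regions had enough counts to be tested, and 76.3% had under 5 CPM.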

Other observations

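With the 137 autosomal regions included that were listed in the knockdown table only but were wider than the limit, 17021 regions were tested. Of these, 67 were higher in the knockdown lines than in Scr at an edgeR FDR of 0.05, in place of 48 of 16884. Over all 44289 regions tested 113 were higher. With the 137 included 0 were lower, and the median log2 fold change was 0.06 in place of 0.05. For OE against EV the numbers with them were 0 higher and 0 lower. An unadjusted p under 0.05 by edgeR was reached by 157 upward and 726 downward, beside 1469 and 1434 over all regions.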
